A study of Mus musculus with 8 samples.

Results

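The genes described here are 10 regulators of the exit from meiosis and of the first cell cycles: Mos, Ccnb1, Ccnb2, Ccna2, Cdk1, Wee1, Wee2, Cdc25b, Plk1 and Fbxo43. They were taken by gene symbol, and each matched 1 of the 37310 gene identifiers in the count tables. All 10 passed the filter on low counts and were among the 14970 genes tested. The embryos were C57BL/6N mice at the 2-cell stage, either wild-type or lacking Gadd45a and Gadd45b (DKO, for double knockout), whose small proteins are induced by stress and act in growth arrest and DNA repair. Each genotype had 4 pools, each of 23 to 35 embryos from 1 litter. Dams were superovulated, mated naturally at 3 to 4 weeks of age and of the same genotype as their embryos, and embryos were taken 20 h after the plug. Loss of the maternal and of the embryonic gene products therefore cannot be told apart.

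An ovulated mouse egg waits in metaphase of meiosis II with high activity of maturation-promoting factor, the kinase CDK1 bound to a B-type cyclin. The MOS kinase, acting through the MAPK cascade, and EMI2, the inhibitor of the anaphase-promoting complex that Fbxo43 encodes, hold this arrest. Fertilization releases it through destruction of cyclin B and of EMI2. WEE kinases put inhibitory phosphates on CDK1, CDC25 phosphatases take them off, and the egg carries its own WEE kinase, WEE2, beside WEE1. Much of this machinery is laid down as stored RNA in the oocyte, and the 2-cell embryo destroys most of that RNA while it starts its own transcription.

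Libraries held 21329736 to 23919114 counts, with 18433 to 20427 genes detected, and the 10 genes together took 0.408% to 0.501% of them. Gadd45b counts were 4, 14, 1 and 6 in DKO replicates 1 to 4 and 910, 946, 1395 and 808 in wild-type replicates 1 to 4, which matches the label of every library. Gadd45a, whose counts were 237, 247, 163 and 201 in DKO and 482, 341, 502 and 468 in wild-type, kept reads in the knockout. DKO replicate 1 was unlike the rest: its sample quality weight in limma-voom was 0.365, the lowest of the 8, so fold changes that move without it are given without it too. A list of 10 tested oocyte and egg transcripts summed to 3572 CPM (the count of a gene relative to the TMM-scaled library total) in DKO replicate 1, to 2105 to 2346 in the other DKO pools and to 1659 to 2431 in the wild-type pools. Its lowest sum, 1659 CPM, was that of wild-type replicate 4. Oosp1, at 2077 CPM, and Bmp15, at 935 CPM, made up most of the sum in DKO replicate 1. The other 8 genes summed to 560.0 CPM there and to 520.5 to 626 in the other pools. Among them, Gdf9 and H1foo were at their highest of the 8 pools in DKO replicate 1, and Zp3 and Padi6 at their lowest. A 2-cell list of 11 tested genes summed to 1440.1 to 1875 CPM in DKO and to 1225 to 1806 in wild-type. The list for cumulus and granulosa cells summed to 38.9 to 57.3 CPM in DKO and 41.0 to 53.1 in wild-type, with Ptx3, Amh and Foxl2 at 0 in all 8 libraries. For 4-cell to blastocyst markers the sums were 55.6 to 76.5 and 53.4 to 71.3 CPM. The part of these differences between pools in the results that follow was not tested.

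None of the 10 genes passed the threshold of 0.05 on the adjusted p between genotypes in edgeR's quasi-likelihood test, and none did in DESeq2 or in limma-voom with quality weights. Over all genes tested, edgeR called 4 (0.0267%), DESeq2 called 47 of 14964 (0.314%) and limma-voom 5 (0.0334%). Gadd45a, itself a target of the knockout, had a log2 fold change of -1.09 and no overlap between genotypes. Its adjusted p was 0.303 in edgeR, 0.135 in limma-voom and 0.000899 in DESeq2. A missing call in edgeR or limma-voom therefore does not show that a gene was unchanged. At an unadjusted p under 0.05, Ccnb2 was lower in DKO and Wee2 higher. These are 1 of 10 genes in each direction, against 4.44% of all genes lower and 5.79% higher, which with so few genes is close to the background. The log2 fold change (DKO minus wild-type) was negative for 6 of the 10 genes and positive for 4, with a median of -0.03. Over all genes tested the median was 0.01, and 48.8% had a negative value. Only Ccnb2 separated the genotypes with no overlap, being lower in every DKO pool, as were 2.55% of all genes. None of the 10 was higher without overlap, as 2.79% of all genes were. Litters are separate pools, but in such pools a different mix of embryo stages and a different amount of RNA per embryo cannot be told apart. Because polyA RNA was used, a change in the amount of an RNA and in its poly(A) tail cannot be told apart either.

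**Figure D1:**
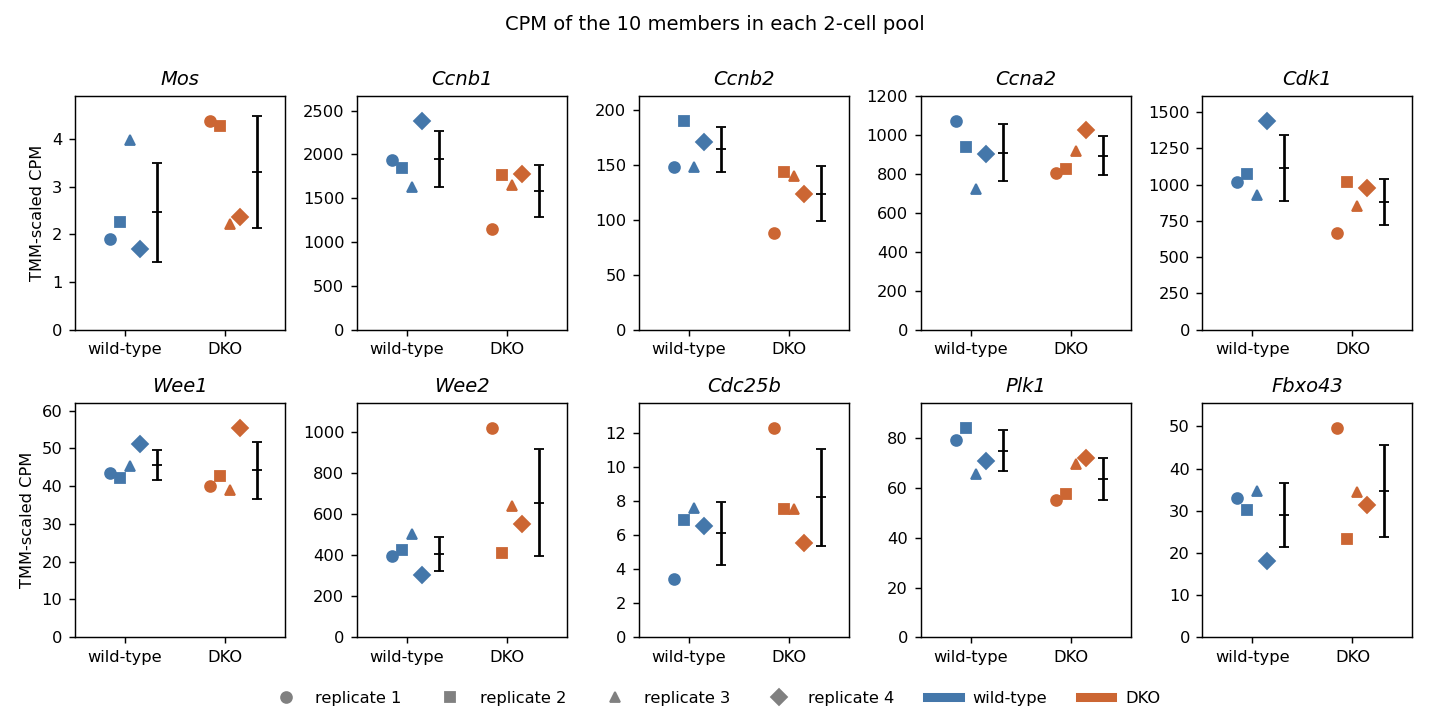
CPM of each of the 10 genes (y axis, linear, from 0) in the 4 wild-type and 4 DKO pools, 1 symbol per replicate, with the group mean and SD. DKO replicate 1 has the highest Wee2 value, 1018 CPM, and the lowest Ccnb1, Ccnb2 and Cdk1 values of the 8 pools.

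By their level per kb of exon in wild-type embryos, the CDK1 engine was far above the arrest factors. Ccnb1, the major B-type cyclin of the egg, was first at 462 ± 75.2 CPM per kb (SD, n = 4). Cdk1 at 226 ± 45.8 and Ccna2 at 223 ± 35.4 CPM per kb came next, and these neighbours overlapped. Wee2 followed at 129 ± 26.3 CPM per kb and overlapped Ccnb2 at 107 ± 13.3. Below them, without overlap between neighbours, came Plk1 at 34.1 ± 3.78, Wee1 at 13.3 ± 1.19 and Fbxo43 at 7.19 ± 1.86 CPM per kb. Mos at 1.70 ± 0.717 and Cdc25b at 1.64 ± 0.497 CPM per kb were last and overlapped. Among the 14415 tested genes with an exon length, Ccnb1 lay at the 99.4th percentile of wild-type level per kb and Mos at the 40.4th. With the length of the longest transcript in place of all exons, 6 of the 10 genes kept their rank. In DKO pools the order of the means was Ccnb1, Ccna2, Wee2, Cdk1, Ccnb2, Plk1, Wee1, Fbxo43, Mos and Cdc25b. There Wee2 at 208 ± 83.0 and Cdk1 at 178 ± 31.9 CPM per kb (SD, n = 4) overlapped. Wee2 was above Cdk1 in DKO replicates 1 (324 against 135 CPM per kb) and 3 (204 against 173). It was below Cdk1 in DKO replicates 2 (130 against 207) and 4 (176 against 198).

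**Figure D2:**
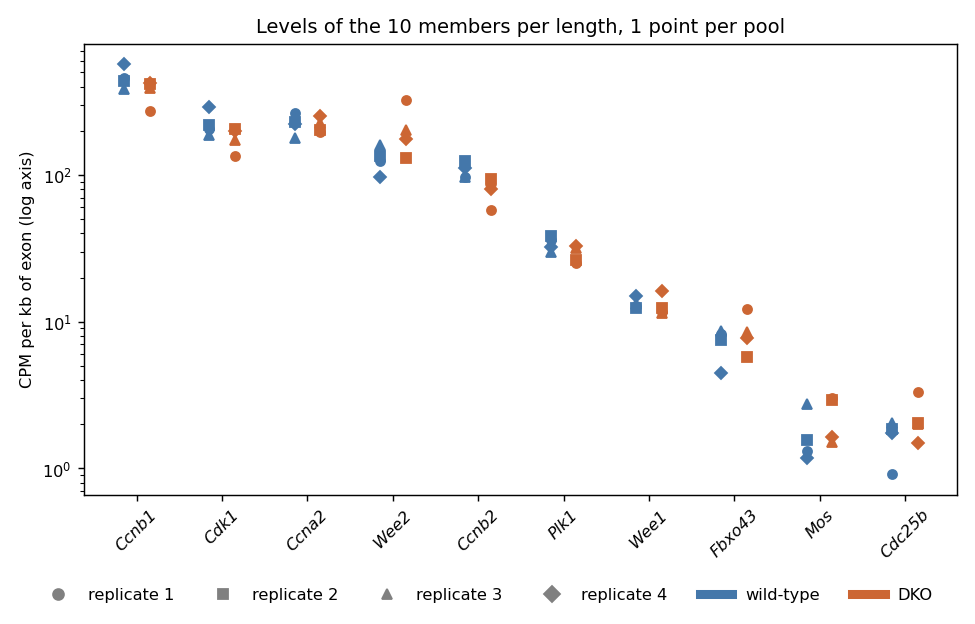
CPM per kb of exon (y axis, log scale) of the 10 genes in each of the 8 pools, ordered by the wild-type mean. Levels span from Ccnb1 at 462 CPM per kb down to Cdc25b at 1.64 in wild-type, and the pools of both genotypes keep the same broad order.

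Mos (ENSMUSG00000078365, chromosome 4), the kinase that starts the MAPK cascade of the metaphase II arrest, had few counts. It was at the 27.5th percentile of wild-type CPM among the genes tested. Its counts were 98, 97, 50 and 53 in DKO replicates 1 to 4 and 44, 49, 89 and 38 in wild-type replicates 1 to 4. In CPM these are 4.38, 4.26, 2.21 and 2.36 against 1.90, 2.25, 3.98 and 1.70. DKO replicates 1 and 2 and wild-type replicate 3 were high, and the genotypes overlapped. Its estimated log2 fold change was 0.43 ± 0.39 (SE, 95% interval -0.40 to 1.25, edgeR adjusted p = 0.686). Leaving out wild-type replicate 3 gave 0.75, and leaving out DKO replicate 1 gave 0.26.

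Ccnb1 (ENSMUSG00000041431, chromosome 13) encodes cyclin B1, whose destruction ends metaphase. It stood at 1148, 1763, 1654 and 1771 CPM in DKO and at 1938, 1838, 1633 and 2384 in wild-type. DKO replicate 1 was the lowest of the 8 pools and wild-type replicate 4 the highest, while the other pools lay close together. The means were 1584 ± 296 CPM for DKO and 1948 ± 317 for wild-type (SD, n = 4 each). In edgeR the log2 fold change was -0.30 ± 0.17 (SE, 95% interval -0.67 to 0.07, adjusted p = 0.538), with -0.18 when DKO replicate 1 and -0.19 when wild-type replicate 4 was left out. Processed pseudogenes hold nearly the same sequence, 99.2% identical over 1287 bases for Ccnb1-ps. In the count tables Ccnb1-ps had only 225 counts over the 4 DKO libraries and 257 over the wild-type libraries.

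Ccnb2 (ENSMUSG00000032218, chromosome 9), the second B-type cyclin, was the one gene whose pools did not overlap. It stood at 88.1, 143, 139.6 and 124 CPM in DKO and at 148, 190.1, 148 and 171 in wild-type. The gap was narrow: DKO replicate 2 at 143 CPM lay just under the lowest wild-type pool at 148. Group means were 124 ± 25.2 and 164 ± 20.3 CPM (SD, n = 4 each). In edgeR it had a log2 fold change of -0.41 ± 0.17 (SE, 95% interval -0.77 to -0.04), at an unadjusted p of 0.0310 and an adjusted p of 0.471. DESeq2 gave an adjusted p of 0.357 and limma-voom 0.383. Without DKO replicate 1 the value was -0.28, with an unadjusted edgeR p of 0.0558. The unadjusted p was above 0.05 also when DKO replicate 4, wild-type replicate 2 or wild-type replicate 4 was left out, with values of -0.41, -0.33 and -0.39.

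Ccna2 (ENSMUSG00000027715, chromosome 3) encodes cyclin A2, the cyclin of S phase and of entry into mitosis. It stood at 805, 827, 918 and 1028 CPM in DKO and at 1074, 939, 723 and 905 in wild-type. The genotypes overlapped over nearly their whole range, and edgeR put the log2 fold change at -0.03 ± 0.16 (SE, 95% interval -0.36 to 0.31, adjusted p = 0.962). Its exons share 510 bases with Exosc9 on the opposite strand, and since the counting's use of strand is not given, some of its reads may be those of Exosc9.

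Cdk1 (ENSMUSG00000019942), the catalytic subunit, lies on chromosome 10, 11.6 Mb from Gadd45b on GRCm38. It stood at 667, 1019, 852 and 975 CPM in DKO and at 1019, 1073, 925 and 1440.3 in wild-type. As for Ccnb1, DKO replicate 1 was lowest and wild-type replicate 4 highest, and 2 of the other DKO pools fell inside the wild-type range. Group means were 878 ± 158 and 1114 ± 226 CPM (SD, n = 4 each). The fitted log2 fold change was -0.34 ± 0.18 (SE, 95% interval -0.72 to 0.04, edgeR adjusted p = 0.501), with -0.24 when DKO replicate 1 and -0.20 when wild-type replicate 4 was left out.

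**Figure D3:**
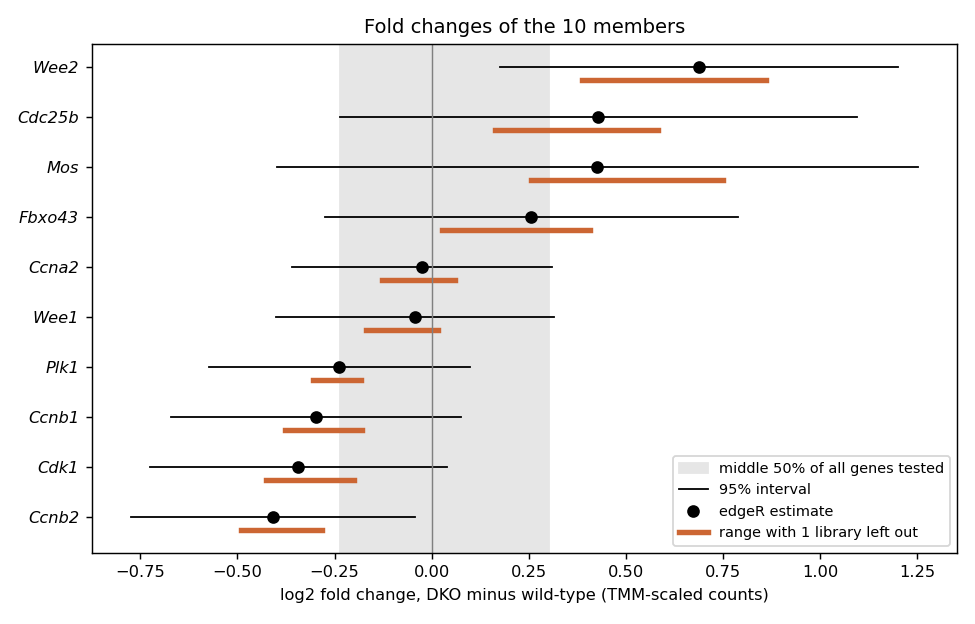
Log2 fold change (x axis, DKO minus wild-type) of each gene with its 95% interval from edgeR, the range when 1 library is left out (orange) and the middle 50% of all genes tested (grey band). Only the intervals of Wee2 (0.18 to 1.20) and Ccnb2 (-0.77 to -0.04) leave out 0.

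Wee2 (ENSMUSG00000037159, chromosome 6, 26.6 Mb from Gadd45a on GRCm38) encodes the oocyte form of the WEE kinases, which keeps CDK1 inhibited in the immature egg and is needed again to leave metaphase II. It stood at 1018, 408, 639 and 551 CPM in DKO and at 393, 423, 504 and 303 in wild-type. Of the DKO pools 3 lay above every wild-type pool, while DKO replicate 2 lay within the wild-type range. Group means were 654 ± 261 and 406 ± 82.7 CPM (SD, n = 4 each), a 1.61-fold difference. On the log2 scale edgeR gave 0.69 ± 0.24 (SE, 95% interval 0.18 to 1.20), an unadjusted p of 0.0118 and an adjusted p of 0.469. DESeq2 gave an adjusted p of 0.237 and limma-voom 0.383. Without DKO replicate 1 the value was 0.39, with an unadjusted edgeR p of 0.0485. DKO replicate 1 was also the pool with the most Oosp1, Bmp15, Gdf9 and H1foo among the oocyte transcripts. The summed CPM of the 8 oocyte transcripts other than Oosp1 and Bmp15 was not highest there.

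Wee1 (ENSMUSG00000031016, chromosome 7), the somatic form, stood at 40.0, 42.7, 38.9 and 55.4 CPM in DKO and at 43.5, 42.1, 45.5 and 51.3 in wild-type. The pools of both genotypes lay within one narrow range, and DKO replicate 1 did not stand out. Its log2 fold change was -0.04 ± 0.17 (SE, 95% interval -0.40 to 0.32, edgeR adjusted p = 0.940). Per kb of exon, Wee2 exceeded Wee1 by 27.7, 10.4, 17.9 and 10.8 times in DKO and by 9.84, 11.0, 12.1 and 6.44 times in wild-type. As a log2 ratio this was 3.94 ± 0.67 for DKO pools against 3.26 ± 0.40 for wild-type pools (SD, n = 4 each), 0.69 apart (two-sided exact permutation p = 0.2). The difference was 0.40 when DKO replicate 1 was left out (two-sided exact permutation p = 0.4). The smallest p that 4 pools against 4 allow is 0.0286. Of the 3 ratios tested, each had an adjusted p of 0.571.

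Cdc25b (ENSMUSG00000027330, chromosome 2), the phosphatase that starts the resumption of meiosis in the mouse oocyte, had 275, 172, 170 and 124 counts in DKO and 79, 150, 170 and 146 in wild-type. In CPM these are 12.3, 7.55, 7.52 and 5.52 against 3.41, 6.89, 7.60 and 6.53. DKO replicate 1 was the highest pool and wild-type replicate 1 the lowest, and the other 6 pools overlapped. A log2 fold change of 0.43 ± 0.31 (SE, 95% interval -0.24 to 1.09, edgeR adjusted p = 0.604) became 0.16 without DKO replicate 1. The log2 ratio of Cdc25b to Wee2 per kb, phosphatase to kinase, was -6.54 ± 0.38 for DKO pools and -6.34 ± 0.55 for wild-type pools (SD, n = 4 each; two-sided exact permutation p = 0.571). That of Ccnb1 to Ccnb2 was 2.22 ± 0.12 and 2.10 ± 0.24 (SD, n = 4 each; two-sided exact permutation p = 0.4).

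Plk1 (ENSMUSG00000030867, chromosome 7), the polo-like kinase that primes EMI2 and WEE1 for destruction, stood at 55.1, 57.5, 69.8 and 72.0 CPM in DKO and at 79.5, 84.1, 65.5 and 71.1 in wild-type. DKO replicates 1 and 2 lay below all wild-type pools and the other DKO pools inside their range. Its fitted log2 fold change was -0.24 ± 0.16 (SE, 95% interval -0.57 to 0.10, edgeR adjusted p = 0.578), with -0.18 when DKO replicate 1 was left out.

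Fbxo43 (ENSMUSG00000048230, chromosome 15), the gene of EMI2, stood at 49.6, 23.3, 34.4 and 31.4 CPM in DKO and at 33.1, 30.1, 34.7 and 18.1 in wild-type. DKO replicate 1 was the highest pool and wild-type replicate 4 the lowest, the reverse of Ccnb1 and Cdk1. The log2 fold change was 0.26 ± 0.25 (SE, 95% interval -0.27 to 0.79, edgeR adjusted p = 0.708), with 0.03 when DKO replicate 1 and 0.08 when wild-type replicate 4 was left out. A stretch of its transcript matches 426 other genes at an identity of at least 90% over at least 85 bases, so part of its reads may have been counted elsewhere.

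Pools differed among themselves along one line that several of the 10 genes shared. The relations were computed after the values had been seen, for all 45 pairs of the 10 genes over the 8 libraries, on log2 CPM. Ccnb1 and Cdk1 went together, with Pearson's r = 0.968 (n = 8, exact permutation p = 0.00159, Benjamini-Hochberg adjusted p over the 45 pairs 0.0238) and Spearman's rho = 0.857 (exact permutation p = 0.0107, adjusted p = 0.0865). Wee2 went against Cdk1, with r = -0.952 (n = 8, exact permutation p = 0.000496, adjusted p = 0.0223) and rho = -0.881 (exact permutation p = 0.00724, adjusted p = 0.0865). It also went against Ccnb1, with r = -0.950 (n = 8, exact permutation p = 0.00102, adjusted p = 0.0229) and rho = -0.833 (exact permutation p = 0.0154, adjusted p = 0.0865). These 3 pairs were the ones with an adjusted p under 0.05 by Pearson's r, and no pair had one by Spearman's rho. When the 2 pools farthest from the median, DKO replicate 1 and wild-type replicate 4, were left out, r was 0.784, -0.872 and -0.733 in the same order. After the genotype means were taken out it was 0.953, -0.928 and -0.929, so the opposition was present between pools of the same genotype. With library size alone as the scaling it was 0.955, -0.960 and -0.950.

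Fbxo43 lay on the side of Wee2, with r = 0.881 (n = 8, adjusted exact permutation p = 0.0576), and opposite Cdk1, with r = -0.929 (n = 8, adjusted exact permutation p = 0.0576). These relations were weaker without the 2 farthest pools, where r was 0.514 and -0.529. By rank, Spearman's rho was 0.762 with Wee2 (exact permutation p = 0.0368) and -0.929 with Cdk1 (exact permutation p = 0.00223). Neither rho had an adjusted p under 0.05. After the genotype means were taken out, r was 0.933 with Wee2 and -0.970 with Cdk1. Many genes outside the list shared the line. Of 7473 other named genes at 3 log2 CPM or more on average, 3.43% had an r of at least 0.95 in size with Wee2, 2.52% with Cdk1 and 4.32% with Ccnb1. All libraries share 1 scaling, and the pools with the highest and lowest Wee2, DKO replicate 1 and wild-type replicate 4, also had the highest and lowest sums of the oocyte list, which Oosp1 and Bmp15 carried. The part of these transcripts in these relations was not tested.

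**Figure D4:**
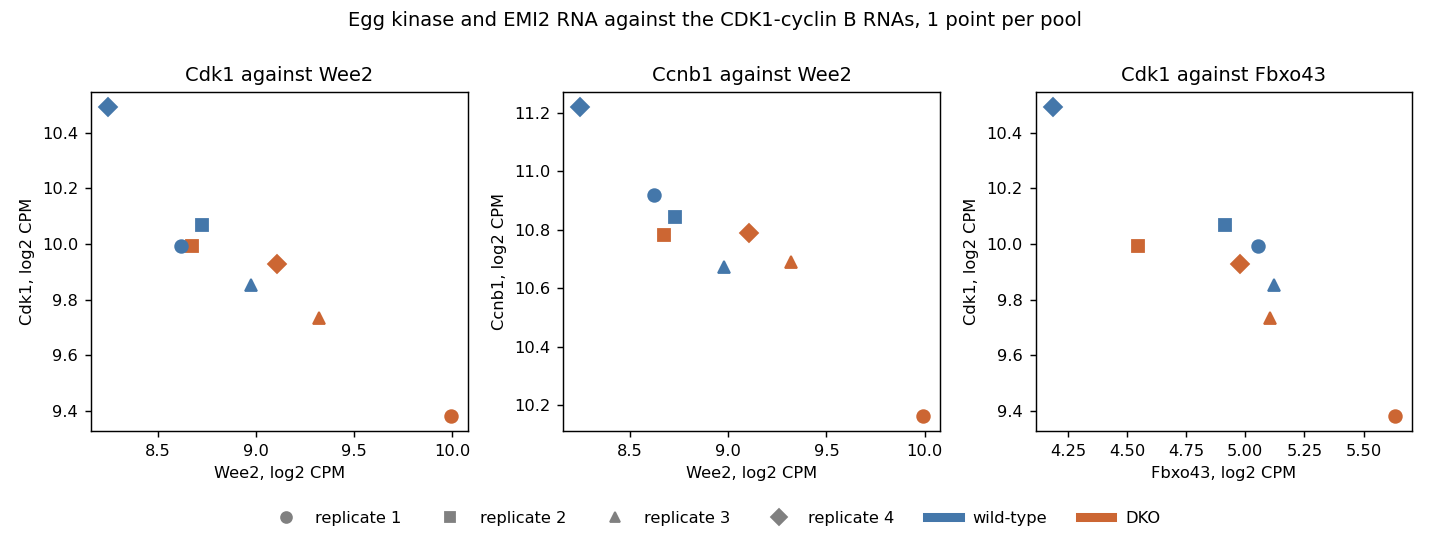
Log2 CPM of Cdk1 and Ccnb1 (y axes) against Wee2 (x axes), and of Cdk1 (y axis) against Fbxo43 (x axis). Each pool is 1 point, with symbols for replicates and colours for genotypes. Pools with more Cdk1 or Ccnb1 have less Wee2 (r = -0.952 and -0.950) in both genotypes, with DKO replicate 1 and wild-type replicate 4 at the ends.

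Genes with the pattern most like each member over the 8 libraries were taken by Pearson's r, as a description. For Wee2 they were Hivep1 (r = 0.991), Gabrr3 (0.987) and Tmem117 (0.986), and for Ccnb1 they were Bcas3 (0.996), Kpna2 (0.996) and Sbds (0.993). Plk1 was most like Tmem222 (0.965), Tubg1 (0.956) and Naif1 (0.956). Wee1, which stayed off the shared line, was most like Cdt1 (0.956), Rbbp6 (0.946) and Hmgn2 (0.912), and Mos was most like Mybl1 (0.974), Hnrnpa0 (0.962) and Ndufb8 (0.957). Among these, Kpna2 encodes an importin, Cdt1 a replication licensing factor and Tubg1 a tubulin of the spindle poles.

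The promoters of Ccnb1, Cdk1 and Wee2, which went together or against each other over the pools, and of Ccnb2, whose pools did not overlap, are shown with CCAAT and CHR, elements known from promoters of genes that are active late in the cell cycle. Sequences are those of RefSeq on GRCm38.p6, from 250 bases before to 50 after the start of the gene, and 6 of the 10 genes matched that table. They lie at chr13:100786437-100786736 for Ccnb1, chr9:70421505-70421804 for Ccnb2 and chr10:69352863-69353162 for Cdk1, all on the minus strand, and at chr6:40442613-40442912 on the plus strand for Wee2. Capitals mark CCAAT or its complement ATTGG, and the CHR core TTTGAA or its complement TTCAAA.
Ccnb1: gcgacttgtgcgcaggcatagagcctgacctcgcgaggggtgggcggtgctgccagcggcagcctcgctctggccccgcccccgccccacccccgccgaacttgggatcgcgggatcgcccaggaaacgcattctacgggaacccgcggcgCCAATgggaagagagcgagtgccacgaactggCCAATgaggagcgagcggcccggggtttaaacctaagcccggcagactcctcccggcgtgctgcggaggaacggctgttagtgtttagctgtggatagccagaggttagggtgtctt
Ccnb2: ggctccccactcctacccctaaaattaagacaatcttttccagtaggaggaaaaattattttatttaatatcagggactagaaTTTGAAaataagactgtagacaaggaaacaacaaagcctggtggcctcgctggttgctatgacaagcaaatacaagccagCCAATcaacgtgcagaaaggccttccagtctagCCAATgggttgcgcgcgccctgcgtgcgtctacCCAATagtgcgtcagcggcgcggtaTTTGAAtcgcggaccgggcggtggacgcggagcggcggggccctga
Cdk1: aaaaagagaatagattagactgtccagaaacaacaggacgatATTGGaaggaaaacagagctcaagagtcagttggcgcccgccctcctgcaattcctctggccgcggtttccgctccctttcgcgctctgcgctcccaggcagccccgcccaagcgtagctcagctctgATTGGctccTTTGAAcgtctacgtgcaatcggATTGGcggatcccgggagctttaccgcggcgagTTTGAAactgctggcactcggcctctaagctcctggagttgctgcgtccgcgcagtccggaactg
Wee2: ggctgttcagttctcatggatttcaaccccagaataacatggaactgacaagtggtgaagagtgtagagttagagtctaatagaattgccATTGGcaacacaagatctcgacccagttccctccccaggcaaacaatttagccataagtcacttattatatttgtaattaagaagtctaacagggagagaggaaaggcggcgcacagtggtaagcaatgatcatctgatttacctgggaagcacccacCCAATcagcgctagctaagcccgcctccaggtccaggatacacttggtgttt

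Both strands were searched, and the motifs did not overlap one another. Ccnb2 held 3 CCAAT matches, starting 87, 54 and 21 bases before the gene start, and 2 CHR cores. Cdk1 held 3 CCAAT matches, at 208, 80 and 48 bases before the start, and CHR cores at 71 and 15. Ccnb1 held CCAAT at 99 and 67 bases before the start and no CHR core in this window. In all 3 genes a pair of CCAAT matches began 32 or 33 bases apart, whereas those of Wee2, at 160 and 2 bases before the start, were 158 apart. Such spacing, looked for after the matches were seen, occurred in 0.606% of 32851 promoters of the same length. CCAAT was in 37.4% of them, at least 2 CCAAT matches in 11.7%, the CHR core in 17.9% and both CCAAT and CHR in 6.95%. Cdc25b and Plk1, whose promoters were also in that table, held 1 CCAAT match each and so no pair. A match describes the letters only.

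The cytoplasmic polyadenylation element is the other feature shown, since the poly(A) tails of Mos and cyclin RNA are lengthened through it when the oocyte matures, and the RNA was taken as polyA RNA. The motifs TTTTAT and TTTTAAT were searched on the sense strand in the last 100 bases of the transcripts of GENCODE mouse release 21 on GRCm38, with AATAAA or ATTAAA as the poly(A) signal. Among the longest coding transcripts of the 10 genes, Wee2 alone held the element there, in 2 copies that start 46 and 18 bases from the end. Over all tested genes with at least 100 bases of 3′ UTR, 19.5% of 12357 held it. Farther from the end, the longest transcripts of Ccna2, Fbxo43, Ccnb1, Cdk1 and Ccnb2 held the element 8, 6, 4, 2 and 1 times. Anywhere in the 3′ UTR, 63.7% of the 12357 genes held it. A shorter annotated transcript of Ccnb1 held it 62 bases from its end, and one of Ccna2 67 bases from its end. Within the last 100 bases, 3 of 14 coding transcripts of the 10 genes thus had it, against 18.6% of 25622. Capitals mark the element and, in the second Wee2 window, the poly(A) signal before it.
Wee2, 46 bases from the end: ttaacataTTTTAATccagatcattgtaaa
Wee2, 18 bases from the end: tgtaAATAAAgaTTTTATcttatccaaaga
Ccnb1, shorter transcript: atttgctgTTTTAATttatacatctgatat
Ccna2, shorter transcript: ttggataaTTTTAATtggttaacattggtg

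Lists of partner genes around the 10 members held 96 tested entries, of which edgeR called none, limma-voom none and DESeq2 1. At an unadjusted edgeR p under 0.05, 5 were higher and 6 lower, close to the shares of all genes, 5.79% and 4.44%. The list for polyadenylation and masking of maternal RNA had positive values in 18 of 20 tested genes, with a median log2 fold change of 0.26 against 0.01 for all genes, and 3 were higher at an unadjusted p under 0.05. Without DKO replicate 1 the median was 0.13, with 16 of 20 positive, against a median of -0.0077 and 7489 of 15312 positive for all genes. Its smallest unadjusted p in that direction was that of Btg4, the adaptor that directs deadenylation of maternal RNA after the egg matures. Btg4 stood at 5899, 2795, 4481 and 3157 CPM in DKO and at 2487, 2121, 3367 and 1441 in wild-type, which edgeR put at 0.79 ± 0.26 on the log2 scale (SE, adjusted p = 0.469) and at 0.56 without DKO replicate 1. DKO replicate 1 was highest and wild-type replicate 4 lowest, as for Wee2, and DKO replicates 2 and 4 lay below wild-type replicate 3. Cpeb3, a binding protein of the polyadenylation element, had the lowest p on the negative side (-0.22, edgeR adjusted p = 0.688). The summed CPM of the list was 8926, 4745, 6799 and 5255 in DKO and 4603, 4094, 5620.5 and 3215 in wild-type. Although named for polyadenylation and masking, the list also held genes of deadenylation such as Btg4. Most of the sum in every pool was that of Btg4 and Cnot7. They stood at 5899 and 1324 CPM in DKO replicate 1 and at 1441 and 771 in wild-type replicate 4.

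In the MOS-MAPK list, 5 of 9 genes were positive and 4 negative, with a median of 0.05 that turned to -0.09 without DKO replicate 1. Map2k2, one of the kinases between MOS and MAPK, stood at 12.2, 18.4, 17.8 and 19.4 CPM in DKO and at 28.7, 23.8, 24.2 and 26.9 in wild-type. Every DKO pool was below every wild-type pool, at -0.61 ± 0.20 on the log2 scale (SE, edgeR adjusted p = 0.469) and -0.49 without DKO replicate 1. Mapk3, the ERK1 kinase, had 0.47 ± 0.22 (SE, edgeR adjusted p = 0.485) and 0.19 without DKO replicate 1, with 128 CPM in DKO replicate 1 and 57.0 to 82.0 in the other DKO pools against 51.8 to 68.6 in wild-type.

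Among regulators of CDK1 activity other than the members, 6 of 13 tested genes were positive and 7 negative, with a median of -0.13. Cdc25c, a phosphatase that activates CDK1, stood at 120.2, 194, 179 and 219 CPM in DKO and at 236, 259.9, 222 and 260.2 in wild-type, without overlap (-0.46 ± 0.17 on the log2 scale, SE, edgeR adjusted p = 0.469; -0.32 without DKO replicate 1). Camk2g, the calcium-dependent kinase that sets off EMI2 destruction at fertilization, had the smallest p on the positive side (0.39, edgeR adjusted p = 0.555). It stood at 23.8 CPM in DKO replicate 1 and at 14.9 to 15.4 in the other DKO pools, and its value without DKO replicate 1 was 0.19. In the list of other cyclins and CDKs, 4 of 11 tested genes were positive, with a median of -0.04 (-0.09 without DKO replicate 1), none had an unadjusted p under 0.05 and Ccna1 was at 0 in all 8 libraries. Its smallest p values were those of Ccno (-0.38, edgeR adjusted p = 0.523) and Cdk6 (0.89, edgeR adjusted p = 0.533). Cdk6 stood at 5.23 CPM in DKO replicate 1 and at 0.934 to 2.68 in the other DKO pools, and its value without DKO replicate 1 was 0.39. That of Ccno was -0.48.

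PP2A-B55 is a phosphatase that removes the phosphates CDK1 has placed, and the kinase Greatwall, through ARPP19 and ENSA, holds it inactive. In their list 2 of 10 tested genes were positive, with a median of -0.08. One of these was Ppp2r2b, a B55 regulatory subunit, at 19.2, 19.4, 18.7 and 19.5 CPM in DKO and at 12.7, 9.33, 9.12 and 12.8 in wild-type. The DKO pools were nearly equal and all above the wild-type pools. With a log2 fold change of 0.81 ± 0.20 (SE), it had an adjusted p of 0.394 in edgeR and of 0.0333 in DESeq2, so DESeq2 called it and edgeR did not. Without DKO replicate 1 it was 0.80. On the negative side Mastl, which encodes Greatwall, had the smallest p (-0.27, edgeR adjusted p = 0.499).

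For the APC/C, its regulators and separase, 17 of 22 genes were negative and 5 positive, with a median of -0.11, and -0.07 without DKO replicate 1. The summed CPM of the list was 5220.3 to 5442 in DKO and 5583 to 5773 in wild-type, without overlap, a description only. The sums of every other partner list overlapped. Ube2c, Mad2l1 and Pttg1 had the highest means, 933, 1083 and 888 CPM in DKO and 1047, 1088 and 867 in wild-type, and each overlapped. Of the 22 genes, 1 was lower and 0 were higher at an unadjusted edgeR p under 0.05, against 4.44% and 5.79% of all genes. Bub3, a spindle checkpoint protein, stood at 219, 342, 323 and 356 CPM in DKO and at 431, 496, 406 and 401 in wild-type (-0.48 ± 0.17 on the log2 scale, SE, edgeR adjusted p = 0.469; -0.35 without DKO replicate 1). On the positive side the smallest p was that of Ube2s, the enzyme that extends ubiquitin chains for the APC/C (0.19, edgeR adjusted p = 0.650, and 0.04 without DKO replicate 1). In the list of Aurora and other polo-like kinases 8 of 11 genes were negative, against 48.8% of all genes, with a median of -0.22. At an unadjusted p under 0.05, 3 were lower, against 4.44% of all genes. Without DKO replicate 1 the median was -0.10, with the same count of negative values. Aurka, the spindle kinase that activates PLK1, stood at 279.8, 468, 506 and 519 CPM in DKO and at 736, 688, 530.1 and 664 in wild-type. The pools did not overlap, although DKO replicate 4 lay close to wild-type replicate 3, and edgeR put the difference at -0.56 ± 0.19 on the log2 scale (SE, adjusted p = 0.469) and at -0.40 without DKO replicate 1. The other genes of the list that were lower at an unadjusted p under 0.05 overlapped between genotypes. Plk4, the kinase of centriole duplication, had the smallest p on the positive side (0.37, edgeR adjusted p = 0.499, and 0.23 without DKO replicate 1).

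**Figure D5:**
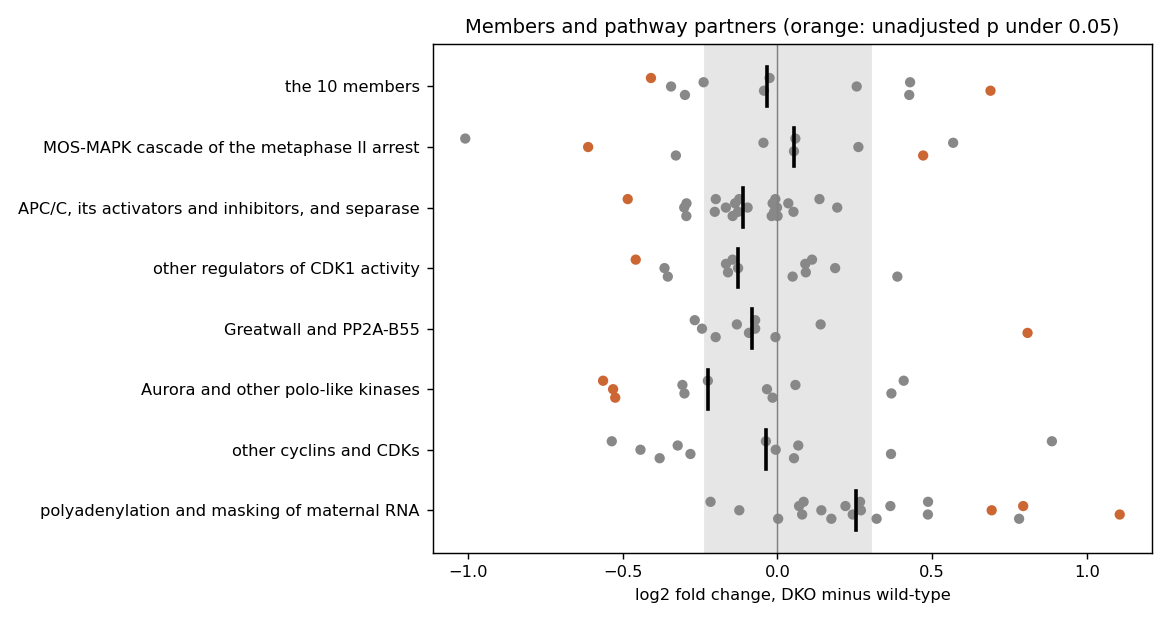
Log2 fold change (x axis, DKO minus wild-type) of the 10 members and of the tested genes of 7 partner lists, 1 point per gene, with orange points at an unadjusted p under 0.05. The list for polyadenylation and masking has 18 of 20 points above 0, and the Aurora and polo-like list has 8 of 11 below 0. Of all genes tested, 48.8% were below 0.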

How the data were processed

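RNA of 8 pools was sequenced from polyA RNA after very low-input cDNA amplification, with all libraries on 1 flow cell, per the labels' protocols. No molecular identifiers are described, so amplified reads are not independent molecules. The authors deposited whole-number counts per gene, not normalized. The submitters' processing notes name STAR 2.5.2b, featureCounts 1.5.1 and DESeq2 1.18.1 and the builds NCBIM37 and mm9. Strand and multi-mapping settings are not given in the sources used here.

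After filterByExpr and TMM scaling, counts were tested with edgeR 4.0.16 (robust quasi-likelihood, R 4.3.3), DKO against wild-type, all 8 libraries, no covariate, Benjamini-Hochberg adjustment over 14970 genes and a threshold of 0.05. The gene test was run on simulated data with 200 changed genes. Log2 CPM used a prior count of 2. Ratios were compared by exact permutation over the 70 assignments of pools. Symbols matched 32620 identifiers and 4690 were kept without one. Levels per kb, overlaps and transcript ends came from GENCODE mouse release 21, whose build (GRCm38) is newer than the counts'. Alternatives were DESeq2 1.42.0, limma-voom (limma 3.58.1), other scalings and filters, a covariate for log2 embryos per pool, a replicate block and each library left out. Leaving DKO replicate 1 out of the partner lists and the correlations was chosen after seeing the data. The lowest chi-square per degree of freedom between libraries of a genotype was 22.2, so none of these was a plain re-sequencing of another. A second amplification of the same RNA cannot be told from it, and libraries of different genotypes were not compared.

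The members and partner lists were chosen with earlier results of these data known. The rule for names took the 10 members, in each partner list any gene past the threshold or otherwise the smallest unadjusted p in each direction, and, for 5 members, the 3 most alike genes among those averaging 3 log2 CPM or more, placeholder symbols aside.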

Additional observations from a re-analysis of the deposited data

Results flagged for a closer look

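Ccnb1 in DKO replicate 1 stood far below the other DKO pools, at 10.2 log2 CPM. The gap to the nearest pool was 0.842 of the range of the 4 DKO pools, above Dixon's critical value at 95%. This was 1 of 26 groups of pools examined, and chance flags about 1 in 20. Without that pool the log2 fold change of Ccnb1 was -0.18 in place of -0.30.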

How the results depend on the processing

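No setting of those tried gave any of the 10 genes an adjusted p under 0.05. Of 168 alternative fold changes 159 kept their sign and 9 turned it, all in Ccna2 or Wee1. Ccna2 was 0.029 with library size alone, 0.012 with limma-voom, 0.012 with a mean of at least 10 CPM and -0.13 to 0.060 with 1 library left out. Wee1 was 0.0097 with library size alone and -0.17 to 0.015 with 1 library left out. The median of the members was 0.019 with library size alone and -0.13 to 0.0054 with 1 library left out, above 0 only without DKO replicate 1. With library size alone the median of all genes tested was higher too, 0.066 against 0.012 in the main fit. Genes lower at an unadjusted p under 0.05 were 2 (Ccnb2 and Cdk1) with log2 embryos per pool as a covariate and 0 to 2 with 1 library left out: 0 without DKO replicate 1 or 4 or wild-type replicate 2 or 4, and 2 without DKO replicate 2 or wild-type replicate 3. Genes with no overlap were 1 to 3 with 1 library left out, 3 without wild-type replicate 3. Over 17 alternatives the adjusted p of Wee2 was 0.237 to 0.862 and its unadjusted p stayed under 0.05; that of Ccnb2 was 0.276 to 0.864, with 13 of 17 unadjusted p under 0.05. The cause of these shifts was not tested. At a mean of at least 10 CPM Mos and Cdc25b were not tested, and their counts of 38 to 275 limit their precision. Over all genes edgeR called 4 and DESeq2 47.

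Replicate numbers did not pair the pools: deviations of same-numbered pools correlated at 0.00235 to 0.078. With a replicate block edgeR called 0 of the 10 genes and 4 of all genes, with 1 member lower and 1 higher at an unadjusted p under 0.05 and a median of -0.04. For the ratios the smallest p of 4 sign-flipped pairs is 0.125.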
